A study of Mus musculus with 3 samples.

Results

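Mural cells are the cells that wrap blood vessels: pericytes on capillaries and smooth muscle cells on arterioles, arteries and veins. Here they were the skin barcodes with at least 200 genes, at most 20% mitochondrial UMIs (unique molecular identifiers, each a counted RNA molecule), UMIs in at least 3 of the 5 genes Rgs5, Acta2, Myh11, Tagln and Notch3, and no UMI of Ptprc, Krt5, Krt14, Pecam1 or Cdh5. The last 5 genes mark immune cells (Ptprc, which encodes CD45), keratinocytes (Krt5, Krt14) and endothelium (Pecam1, Cdh5). This rule found 221 of 25791 kept skin cells, 80 of 12723 in control and 141 of 13068 in RHS.

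For both skin libraries, mouse skin was digested, selected with CD45 beads and run on BD Rhapsody, which captures single cells in microwells. The control library came from mice given MC903 (calcipotriol, a vitamin D analogue that raises dermatitis-like inflammation), and the RHS library from mice given RHS in addition to MC903. The labels do not expand RHS. All mice of both groups had therefore received MC903 according to the sample descriptions, although the preparation text also speaks of ethanol-treated mice. The remaining library held nuclei of sympathetic ganglia, pooled from 30 mice that had received both RHS and MC903. The mice behind each skin library (how many, their strain, sex and age) were not given in the sources used here. Each group is 1 library, so no test between groups is possible, no p-value is given, and every ratio compares those libraries, not the treatments. Intervals are exact 95% intervals that cover counting error only.

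In skin, pericytes hold the capillary wall together, deposit basement membrane jointly with endothelium and can secrete leukocyte-attracting chemokines. Smooth muscle sets vessel calibre, contracting through actin, myosin and calcium signalling under the control of sympathetic noradrenaline, endothelins, vasopressin and neuropeptide Y, and relaxing through nitric oxide and cyclic GMP. Another smooth muscle of skin, the arrector pili muscle that raises hairs, shares most of these contractile genes. The libraries were labelled immune cells and selected for CD45, so the mural cells were cells that the selection should have removed.

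The rule's own genes were concentrated in the members, which the selection itself brings about, so these values describe the members and are no check of the label. Mural cells made up 0.629% of kept control cells but held 60.3% of that library's Rgs5 UMIs, 62.3% of its Acta2 UMIs and 63.6% of its Myh11 UMIs. In the RHS library they were 1.08% of cells and held 67.9%, 74.9% and 78.9% of the UMIs of the same genes. Among cells with a Ptprc UMI, 4 of 5835 (control) and 7 of 7463 (RHS) had 3 or more of the 5 markers. These Ptprc cells were deeper, with medians of 4484 and 4190 UMIs against 2953 and 2980 in mural cells. Just outside the rule, 31 control and 37 RHS cells had exactly 2 markers, with median marker sums of 10 and 11 UMIs. Just inside it, 14 and 39 cells had exactly 3, with medians of 28 and 19 UMIs. The excluded genes mattered: 46 of 126 control cells and 50 of 191 RHS cells with 3 or more markers carried at least 1 of them. Of these, 36 and 33 carried Pecam1. Scrublet, a doublet caller, called 1 control and 2 RHS mural cells. The skin libraries shared 5 barcodes, none of them mural.

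Members of both libraries were of similar depth. Mural cells summed to 262178 UMIs (control) and 449574 UMIs (RHS), at medians of 1360 and 1432 genes and 6.21% and 5.97% mitochondrial UMIs. The full libraries held 55200785 and 52762575 UMIs.

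Mural cells were a larger share of the RHS library. The share was 0.629% (95% interval 0.499 to 0.782) in control and 1.08% (0.909 to 1.27) in RHS, a ratio of 1.72 (1.30 to 2.29). Endothelial cells, chosen by their own markers, were 2.52% and 2.53% of kept cells, a ratio of 1.00 (0.858 to 1.17). Fibroblasts were 1.75% and 1.60%, a ratio of 0.913 (0.752 to 1.11). There were 24.9 mural cells per 100 endothelial cells in control and 42.6 per 100 in RHS. Cells without a Ptprc UMI numbered 6888 in control and 5605 in RHS, so that the ratio of mural shares among them was 2.17 (1.63 to 2.89). These are shares of what passed a CD45 selection and not of skin, and a difference in carry-over cannot be told apart from one in tissue.

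The genes that set mural cells apart, besides the rule's own, were those of contraction and of the vessel wall. Of 4682 measured genes (at least 20 UMIs over both libraries, rule genes left out), 1056 (22.6%) were at least 2-fold above all other skin cells in both libraries. In the pericyte list 16 of 17 measured genes and in the contractile list 26 of 28 were. Since the members were chosen by markers of these classes, this is a description. Levels are given as CPM, a gene's UMIs scaled to a total of 1000000 over the cells summed. Myl9, a regulatory myosin light chain, was at 965 CPM in control mural cells and 710 CPM in RHS mural cells, 189-fold and 221-fold above other skin cells. Mylk, the kinase that starts smooth muscle contraction, was at 1465 and 1613 CPM, 123-fold and 154-fold above. Rgs4, which dampens G protein signals, was 225-fold and 179-fold above, and Atp1b2, a sodium pump subunit, 186-fold and 173-fold. Aoc3, the vascular adhesion protein amine oxidase, was 154-fold and 148-fold above. Prkg1, the cyclic GMP kinase of smooth muscle relaxation, was 103-fold and 78.6-fold above, and Nrarp, a Notch target, 71.7-fold and 86.6-fold.

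**Figure D1:**
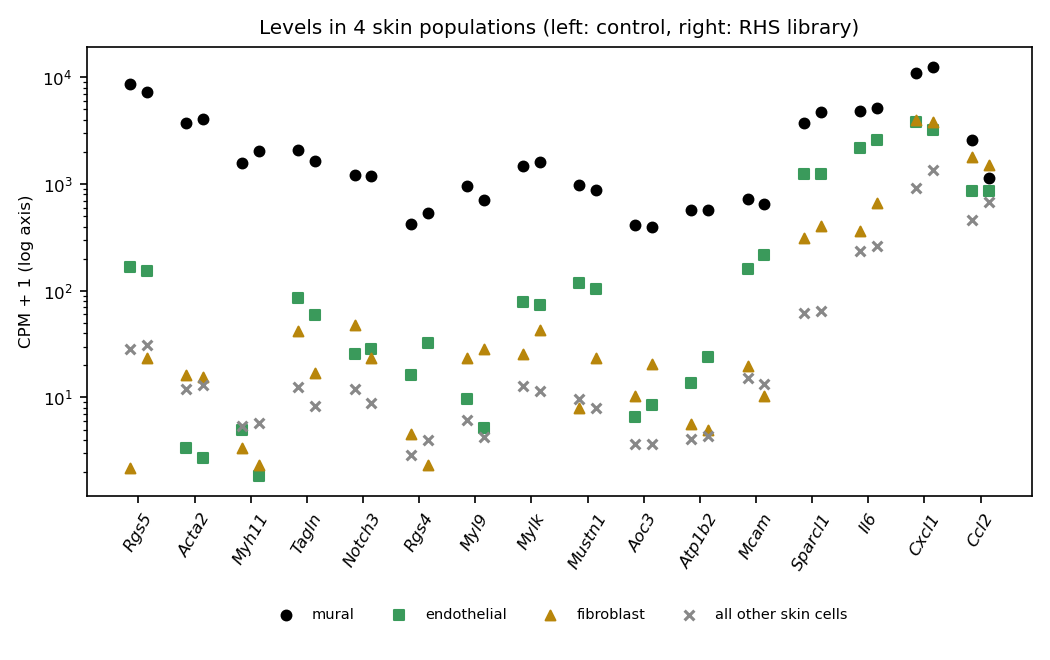
Levels of the 5 rule genes and 11 other genes in mural cells, endothelial cells, fibroblasts and all other skin cells, in CPM plus 1 on a log axis, 1 point per library (left control, right RHS). Mural cells lie above the other populations for the contractile and pericyte genes in both libraries, while Ccl2 of RHS mural cells (1130 CPM) lies among the other populations.

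Promoters of the contractile genes were read for the CArG box, the element that serum response factor binds in smooth muscle genes. RefSeq windows of GRCm38.p6, from 250 bases before to 50 after each start, were matched by symbol, while the counts were made on GRCm39. For the contractile list 29 of 35 genes matched, with 35 windows. The box was read strictly as CC, a core of A and T only, then GG, a pattern that is the same on both strands. Such a CArG box lay in 4 of those 35 windows (11.4%) and in 535 of all 32851 windows (1.63%). The 4 are shown because their genes belong to the contractile list described above. Each stretch runs 5′ to 3′ in the gene's direction with the box in capitals.
Myl9, chr2:156775278-156775337, plus strand: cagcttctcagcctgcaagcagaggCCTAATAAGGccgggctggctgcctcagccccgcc
Rergl, chr6:139501924-139501983, minus strand: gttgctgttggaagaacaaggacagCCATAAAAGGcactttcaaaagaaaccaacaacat
Myl6, chr10:128493025-128493084, minus strand: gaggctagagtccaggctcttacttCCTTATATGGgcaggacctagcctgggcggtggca
Vcl, chr14:20929148-20929205, plus strand: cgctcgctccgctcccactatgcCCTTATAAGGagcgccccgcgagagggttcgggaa
The first base of the box lay 49 bases (Rergl) and 50 bases (Myl6) before the start, and 161 (Myl9) and 227 (Vcl) before it. For Rgs5, Notch3 and Acta2, the rule genes that had a window, none held a box of this strict pattern. Boxes with another base in the core were not searched for, so this does not show that these promoters lack the element. The hexamer TGGGAA on either strand, bound by the Notch effector RBPJ, lay in 8 of 22 pericyte windows (36.4%), 12 of 35 contractile windows (34.3%) and 25.6% of all windows. A match is a stretch of letters and not a bound site.

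Mural cells were not of one kind. Clustering the 221 cells gave 4 sub-clusters, which describe the cells and are not tested. Sub-cluster 0 had 47 control and 59 RHS cells, with Rgs5 at 10600 and 9857 CPM. It was led by S100a8 and S100a9, found in 2 of its control cells, and then by Nrgn and Avpr1a. A marker counted as present in at least 5% of a sub-cluster's cells and at more than 2-fold its level in the other sub-clusters. By that rule no marker of any class was present in sub-cluster 0, which has no cell type name. Its 12 pericyte markers, Rgs5 among them, still summed to 12280 CPM, against 8115 in the other sub-clusters together. Sub-cluster 1 had 17 control and 48 RHS cells. Its Rgs5 was at 8807 and 8440 CPM, and Acta2 at 2380 and 1071. The potassium channel subunit Abcc9, a pericyte gene, was at 409 and 494 CPM there. It was also led by Col1a1, Col1a2 and Dcn, so that 6 of 12 pericyte markers and 3 of 6 fibroblast markers counted as present and it has no cell type name. Sub-cluster 2, with 15 control and 28 RHS cells, was smooth muscle-like: all 11 of its vascular smooth muscle markers were present and 4 of 6 arrector pili markers. Its Acta2 was at 9688 and 11090 CPM and its Cnn1, a smooth muscle calponin, at 245 and 317, while its Rgs5 was the lowest of the 4 sub-clusters, at 2549 and 1884 CPM. Actg2, an actin of visceral and arrector pili muscle, was at 408 and 491 CPM, against at most 85.9 in the other sub-clusters. Sub-cluster 3 held 1 control and 6 RHS cells and was led by Retnla, Cd74 and H2-Ab1, which are genes of myeloid and antigen-presenting cells. Sub-cluster numbers are not compared between libraries, since the genes that define them differ between libraries.

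**Figure D2:**
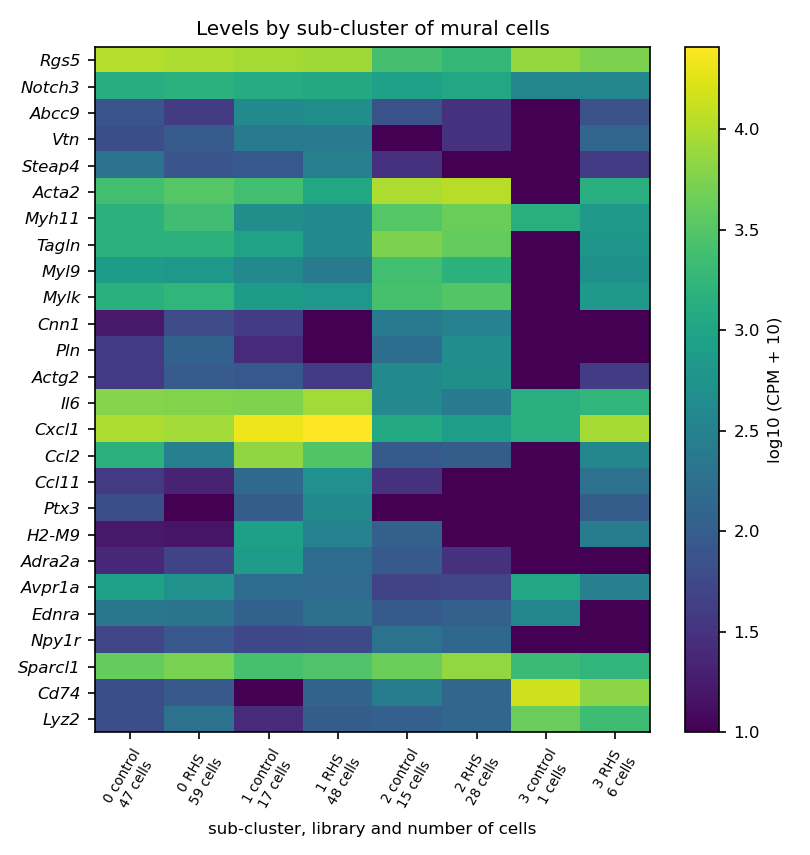
Levels of 26 genes in each sub-cluster and library, as log10 of CPM plus 10 (colour), with the number of cells under each column. Acta2, Cnn1, Pln and Actg2 are highest in sub-cluster 2, and Cxcl1, Ccl2, Ccl11, Ptx3, H2-M9 and Adra2a in sub-cluster 1.

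Shares of contractile and chemokine RNA were compared across cells. The contractile list (without rule genes) took a median of 1.81% of a control cell's UMIs (range 0.352 to 7.03) and 1.28% of a RHS cell's (0.274 to 7.08). The chemokine and cytokine list took medians of 1.25% and 1.48%, up to 11.98% and 10.9% in single cells. Across cells the rank correlation of the 2 shares was -0.45 over the 80 control cells and -0.61 over the 141 RHS cells. The immediate early list, which tissue digestion can also raise, correlated with the chemokine list at -0.45 (control) and -0.47 (RHS). The pericyte list and the chemokine list correlated at 0.30 and 0.42. The shares have a common denominator, the cell's UMIs, and the correlations are descriptions of 1 library each.

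**Figure D3:**
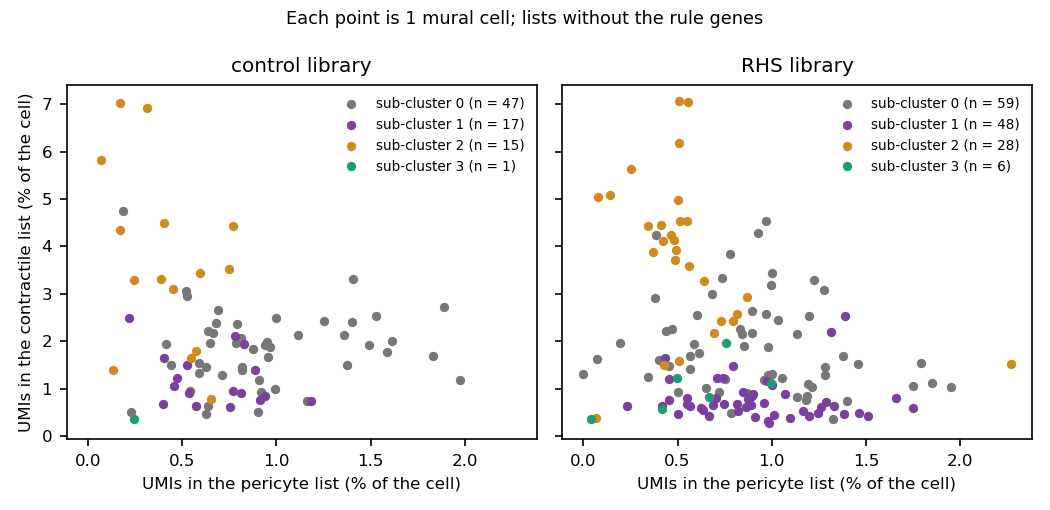
Share of each mural cell's UMIs in the pericyte list (x, % of the cell) and in the contractile list (y, % of the cell), both without rule genes, for the 80 control cells (left) and the 141 RHS cells (right). Cells of sub-cluster 2 reach 7.03% and 7.08% contractile UMIs, and cells of sub-cluster 1 lie low on that axis.

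Inflammatory products were abundant in both libraries. The 35 chemokines and cytokines listed summed to 23120 CPM in control and 23070 in RHS, a ratio of 0.998 (0.967 to 1.03). Cxcl1, a neutrophil attractant, was at 10940 and 12400 CPM, 11.97-fold and 9.10-fold above other skin cells, and was found in 72 of 80 and 122 of 141 cells. Il6, the acute-phase cytokine, was at 4855 and 5205 CPM, 20.7-fold and 20.1-fold above other skin cells. Its UMIs were spread out: 61 of 80 and 114 of 141 cells had at least 1, and the highest cell held 6.76% and 3.20% of them. After thinning each cell to 1500 UMIs (5 control and 20 RHS cells were too shallow), 69.3% and 72.7% of mural cells had an Il6 UMI, against 7.70% and 7.95% of cells with a Ptprc UMI thinned alike. By sub-cluster, Il6 was at 5654 (control) and 8711 (RHS) CPM in sub-cluster 1, 6076 and 5753 in sub-cluster 0, and 388 and 236 in sub-cluster 2. Of the cytokine receptors, Il1r1, the interleukin 1 receptor, was at 774 and 730 CPM and Osmr, the oncostatin M receptor, at 431 and 610, a ratio of 1.41 (1.13 to 1.78). In the list of cytokine receptors and their signalling genes, 7 of 21 measured were higher in RHS and 14 lower, with a median log2 ratio of -0.05. Past 1.5-fold were 2 and 3, beside 13.5% and 10.9% of all measured genes.

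Between libraries, 632 measured genes (13.5%) were at least 1.5-fold higher in RHS mural cells and 512 (10.9%) at least 1.5-fold lower. Of the 1182 genes with at least 100 counts, only 39 were higher by that fold and 55 lower. The share past the fold thus depended on a gene's counts. Shares set beside the lists are those over all measured genes and are not matched for counts. The median log2 ratio over all measured genes was 0.03. Among the 17 chemokines and cytokines measured, 1 was past 1.5-fold higher and 5 past 1.5-fold lower, with a median log2 ratio of -0.12.

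Ccl11, eotaxin 1, which draws eosinophils, had the highest ratio of the 12 named higher genes. It had 14 UMIs in 7 of 80 control cells and 84 UMIs in 24 of 141 RHS cells. That is 53.4 and 187 CPM, a ratio of 3.50 (1.97 to 6.67). After thinning, 5.33% (1.47 to 13.1) of control and 14.9% (9.06 to 22.5) of RHS mural cells had a Ccl11 UMI, intervals that overlap, against 0.0187% and 0.119% of Ptprc cells. Most of its UMIs were in sub-cluster 1, 9 in control and 76 in RHS, a ratio of 3.87 there in a count made after seeing the data. In sub-cluster 0 it had 4 and 2 UMIs. In fibroblasts of the same libraries Ccl11 was at 78.5 and 221 CPM, a ratio of 2.82 (2.11 to 3.80), and in all other skin cells the ratio was 1.81. The fibroblast list of 17 genes, which holds Ccl11, summed to 4501 and 4740 CPM in mural cells. Of its 8 measured genes 6 were higher and 2 lower, where 52.3% of all measured genes were higher. Of the same 8, 3 were past 1.5-fold higher and 0 lower, beside 13.5% and 10.9% of all measured genes. Its Clec3b and Sfrp2 were at 0. Pdgfra, which defines fibroblasts, had 0 and 3 UMIs, and Dcn 3 and 38. The part of these in the Ccl11 ratio was not tested.

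Ptx3, the pattern-recognition protein pentraxin 3, had 14 UMIs in 5 control cells and 63 in 14 RHS cells, a ratio of 2.62 (1.45 to 5.07). The ratio was 5.88 with at least 2 rule markers asked for and 5.41 with at least 4, and 1.35 when divided by the ratio in all other skin cells. A single cell held 7 of the control UMIs, and another 17 of the RHS UMIs. In fibroblasts Ptx3 was higher than in mural cells in both libraries, at 389 and 771 CPM. Cxcl12, which retains leukocytes and progenitors, was at 111 and 160 CPM, a ratio of 1.45 (0.929 to 2.31). Tnfsf9, the ligand of the T cell costimulator 4-1BB, had 16 and 59 UMIs, a ratio of 2.15 (1.22 to 4.00).

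Ccl2, the monocyte attractant, went the other way. It had 684 UMIs in 33 of 80 control cells and 508 in 64 of 141 RHS cells, at 2609 and 1130 CPM, a ratio of 0.433 (0.385 to 0.487). After thinning, 38.7% (27.6 to 50.6) of control and 38.8% (30.1 to 48.1) of RHS mural cells had a UMI, against 14.6% and 19.3% of Ptprc cells. The 5 highest cells held 51.3% of the control UMIs and 33.9% of the RHS UMIs. Without the highest cell of each library the ratio was 0.477. Fibroblasts had a Ccl2 ratio of 0.847, endothelial cells of 0.990 and all other skin cells of 1.48. Lif, an interleukin 6 family cytokine, had 23 UMIs in 4 control cells and 16 in 10 RHS cells, a ratio of 0.406 (0.200 to 0.802). Cxcl10, an interferon-induced T cell attractant, was at 340 and 185 CPM, a ratio of 0.544 (0.398 to 0.742).

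Of the adrenergic receptors reported here, which receive sympathetic noradrenaline, only Adra2a had enough UMIs to be measured. It had 54 UMIs in 16 control cells and 31 in 17 RHS cells, at 206 and 69.0 CPM, a ratio of 0.335 (0.208 to 0.530). It was 120-fold and 29.3-fold above other skin cells. After thinning, 14.7% (7.56 to 24.7) and 4.96% (1.84 to 10.5) of cells had a UMI. The 5 highest cells held 70.4% of the control UMIs and 54.8% of the RHS UMIs. Without the highest cell of each library the ratio was 0.389. Sub-cluster 1 held 48 of the control and 22 of the RHS UMIs, a ratio of 0.210, while sub-cluster 0 held 2 and 7. Adra1b, an alpha-1 receptor of vascular muscle, had 2 and 9 UMIs, Adra1a 2 and 2, and Adra2c 0 and 1. Adra1d, Adra2b, Adrb1 and Adrb3 had no UMI in either library, which allows up to 3 UMIs in each total.

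Of 9 measured receptor genes for other vessel-acting signals, from 51 listed, 1 was past 1.5-fold higher and 1 lower, beside 13.5% and 10.9% of all measured genes. The lower one was Avpr1a, the V1a vasopressin receptor, with 144 UMIs in 29 control cells and 125 in 45 RHS cells, a ratio of 0.506 (0.395 to 0.648). Its 5 highest cells held 61.8% of the control UMIs and 40% of the RHS UMIs. The ratio was 0.588 without the highest cell of each library and 0.767 with at least 4 rule markers asked for. Avpr1a belonged to sub-cluster 0, where it was at 894 and 515 CPM. Gucy1a1, a subunit of the nitric oxide receptor, was the higher one, at 95.4 and 147 CPM with a ratio of 1.54 (0.958 to 2.55), while its partner Gucy1b1 had a ratio of 0.875 (0.583 to 1.32). Ednra, the endothelin A receptor, had 42 and 69 UMIs, a ratio of 0.958 (0.644 to 1.44). Ednrb, the endothelin B receptor, had 128 and 180 UMIs and a ratio of 0.820 (0.650 to 1.04). Edn1 itself had 2 and 0 UMIs. Npy1r, the receptor of the sympathetic co-transmitter neuropeptide Y, had 18 UMIs in 12 control cells and 33 in 23 RHS cells, a ratio of 1.07 (0.585 to 2.02), and was 232-fold and 158-fold above other skin cells.

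Of 28 contractile genes measured, 18 were higher and 10 lower, 5 and 3 of them past 1.5-fold, with a median log2 ratio of 0.14. Over all measured genes 52.3% were higher, 13.5% past 1.5-fold higher and 10.9% past it lower. At least 100 counts were held by 17 of the 28 contractile genes. Among all 1182 genes with that many, 39 were higher by 1.5-fold and 55 lower. Pln, phospholamban, which restrains the calcium pump of the sarcoplasmic reticulum, had 13 UMIs in 10 control cells and 63 in 22 RHS cells, a ratio of 2.83 (1.54 to 5.60). In all other skin cells Pln had a ratio of 2.62, and divided by it the mural ratio was 1.08. Pln was 224-fold and 242-fold lower there than in mural cells, near the floor. Those other cells also include cells with 3 or more markers that carried an excluded gene. With Pecam1 or Cdh5 cells kept as mural, Pln had 20 and 73 UMIs. The 2.62 is therefore no measure of Pln in other cell types. With each cell weighted equally the mural ratio was 1.505, and the highest RHS cell held 12 of the 63 UMIs. Lmod1, leiomodin, had 16 and 45 UMIs, a ratio of 1.64 (0.909 to 3.11). Synm, an intermediate filament protein of the arrector pili list, had 8 and 44 UMIs, a ratio of 3.21 (1.49 to 7.89). Casq2, calsequestrin, had 15 and 9 UMIs, a ratio of 0.350 (0.135 to 0.853). Crip1, a small LIM protein, was at 3437 and 1539 CPM, a ratio of 0.448 (0.405 to 0.495), with a UMI in 77 of 80 and 117 of 141 cells. Crip1 had similar ratios in endothelial cells (0.472), fibroblasts (0.504) and all other skin cells (0.530). Of the rule genes, described only because the rule used them, Myh11 was at 1587 and 2049 CPM and Rgs5 at 8609 and 7349.

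Pericyte genes had a median log2 ratio of 0.03, with 9 of 17 measured higher and 8 lower. Past 1.5-fold were 2 and 1, beside 13.5% and 10.9% of all measured genes. Pdgfrb, the receptor for platelet-derived growth factor B that recruits pericytes, had 34 UMIs in 26 control cells and 39 in 30 RHS cells, a ratio of 0.669 (0.411 to 1.09). Cspg4, the NG2 proteoglycan, had 34 and 30 UMIs, a ratio of 0.515 (0.304 to 0.866), and was also lower in all other skin cells (0.191). H2-M9, a non-classical MHC class I gene, had 63 UMIs in 11 control cells and 55 in 19 RHS cells. It was 394-fold and 204-fold above other skin cells, with 57 and 45 of its UMIs in sub-cluster 1. Its ratio was 0.509 (0.348 to 0.743), and 0.893 without the highest cell of each library, which in control held 31 UMIs. MHC genes resemble each other, and the way reads were split between them was not given in the sources used here.

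Among transcription factors of mural cells, 5 of 17 measured were higher and 12 lower, with 1 and 4 past 1.5-fold, where 52.3% of all measured genes were above 1 and 47.7% below. Their median log2 ratio of -0.26 was -0.00027 with at least 2 markers asked for and 0.16 with Pecam1 or Cdh5 cells kept. Mef2c, a muscle factor, was at 214 and 305 CPM, a ratio of 1.43 (1.04 to 1.98). Tbx3 had 18 and 12 UMIs, a ratio of 0.389 (0.171 to 0.853), and Ebf2 26 and 23, a ratio of 0.516 (0.281 to 0.940). Notch pathway genes had 0 of 7 past 1.5-fold, where 13.5% of all measured genes were past it higher and 10.9% lower. Notch3 itself was at 1224 and 1201 CPM.

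Of 17 basement membrane genes measured, 11 were higher and 6 lower, with 2 past 1.5-fold each way, beside 13.5% and 10.9% of all measured genes. Col18a1, whose C-terminus is endostatin, had 183 UMIs in each library, a ratio of 0.583 (0.473 to 0.720). Serpinh1, the collagen chaperone, was at 851 and 543 CPM, a ratio of 0.638 (0.530 to 0.769). Col4a5 had 10 and 38 UMIs, a ratio of 2.22 (1.08 to 4.99), and Lama2, a laminin chain, 18 and 56, a ratio of 1.81 (1.05 to 3.28). Sparcl1 was at 3704 and 4709 CPM, a ratio of 1.27 (1.18 to 1.37). Of 32 interstitial matrix genes measured, 13 were higher and 19 lower, with 3 and 4 past 1.5-fold. Bgn, the proteoglycan biglycan, was at 1068 and 618 CPM, a ratio of 0.579 (0.489 to 0.686). Tgfb3, a growth factor for matrix synthesis, had 30 and 90 UMIs, a ratio of 1.75 (1.15 to 2.74).

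Immediate early genes, which turn on within minutes of many stimuli and of tissue digestion, were measured in full: 10 of 26 higher and 16 lower, none and 4 past 1.5-fold, with a median log2 ratio of -0.16. Over all measured genes 52.3% were higher, with 13.5% past 1.5-fold higher and 10.9% past it lower. Fosb was at 2853 and 1802 CPM, a ratio of 0.631 (0.571 to 0.698), and Myc at 397 and 245, a ratio of 0.617 (0.468 to 0.814). Atf3, at 664 and 934 CPM, had a ratio of 1.41 (1.18 to 1.69). Of the 15 measured genes of the cyclic AMP list, 5 were higher and 10 lower, with 0 and 3 past 1.5-fold and a median log2 ratio of -0.13. At least 100 counts were held by 22 of the 26 immediate early genes and 10 of the 15 cyclic AMP genes. Among all 1182 genes with that many, 39 were higher by 1.5-fold and 55 lower. Crem was at 561 and 343 CPM, a ratio of 0.611 (0.484 to 0.771). Rgs2, which restrains vasoconstrictor receptors, had 52 and 32 UMIs, a ratio of 0.359 (0.224 to 0.568). Nr4a1 was at 1816 and 1230 CPM, a ratio of 0.677 (0.598 to 0.768). Median ratios of both lists were -0.16 and -0.15 on the log2 scale in all other skin cells.

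Mt2, a metallothionein that binds zinc and follows glucocorticoids, was at 2765 and 1008 CPM, with a UMI in 71 of 80 and 101 of 141 cells and a ratio of 0.364 (0.323 to 0.410). It was lower in all other skin cells as well, and by more, at a ratio of 0.154. Endothelial cells had 0.259 and fibroblasts 0.487. Mt1, another metallothionein, was at 1884 and 1886 CPM. Actn4, an actin crosslinker, had a ratio of 0.509 (0.417 to 0.621) and Lrrc32, which holds latent transforming growth factor beta at the cell surface, 0.532 (0.403 to 0.700). In all other skin cells Actn4 had 0.542 and Lrrc32 0.504.

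Of 13 measured neurotrophic and guidance genes, 6 were higher and 7 lower. Past 1.5-fold were 0 and 1, beside 13.5% and 10.9% of all measured genes. Ntrk2, a neurotrophin receptor, was at 343 and 345 CPM. Gdnf had 21 and 22 UMIs, a ratio of 0.611 (0.320 to 1.17).

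**Figure D4:**
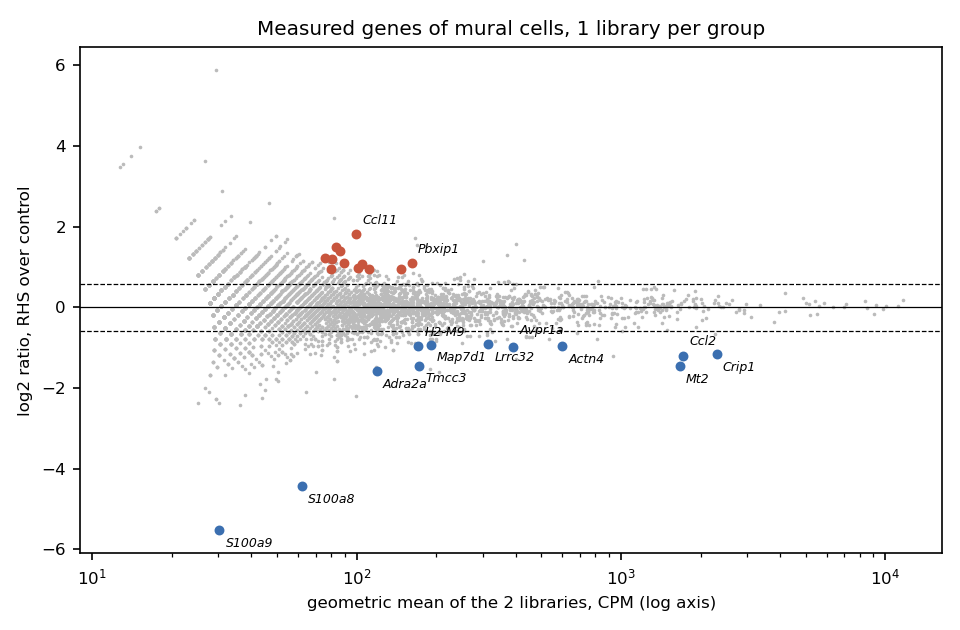
Log2 ratio of RHS over control mural cells (y) against the geometric mean level in CPM (x, log axis) for 4682 measured genes, 1 library per group. Dashed lines mark 1.5-fold, red points are the 12 named higher genes and blue points the 12 named lower genes; S100a9 and S100a8 lie lowest.

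Several named genes came from few cells or from genes of other cell types. S100a8 and S100a9, calprotectin subunits of neutrophils, together had 130 UMIs in 2 control cells (70 and 60) and 8 UMIs in 2 RHS cells. Ratios were 0.046 (0.016 to 0.105) and 0.022 (0.0026 to 0.082). Of the class II genes, H2-Ab1 had 61 and 311 UMIs, a ratio of 2.97 (2.25 to 3.98), and Cd74 62 and 259, a ratio of 2.44 (1.84 to 3.27). Of the UMIs of H2-Aa, H2-Ab1, H2-Eb1 and Cd74, 159 of 251 in control and 859 of 1059 in RHS were in the 1 and 6 cells of sub-cluster 3. The immune list of 23 genes summed to 1694 and 2751 CPM, with 9 of 11 measured higher and 2 lower. Of these, 8 and 2 were past 1.5-fold, beside 13.5% and 10.9% of all measured genes. Nkg7 was at 0 in both libraries, and Ptprc was at 0 because the rule demands it. Without sub-cluster 3 the median log2 ratio of the immune list went from 1.28 to 0.32. The keratinocyte list of 19 genes summed to 99.2 and 64.5 CPM, with Dsp, Dsc3, Epcam and Sbsn at 0. Its Krt5 and Krt14 were at 0 because the rule demands it. In the endothelial list of 20 genes 9 were at 0, among them Emcn, Cldn5 and Tek, and the sum of 2517 and 2411 CPM was mostly Fabp4. Any zero of Pecam1 or Cdh5 was likewise set by the rule. The part of immune RNA in the other ratios was not tested, but leaving out sub-cluster 3 moved no named gene beyond its counting interval.

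Among the remaining named genes, Plagl1, an imprinted zinc finger factor, had 13 and 52 UMIs, with 20 of the latter in a single cell. Adgrl1, a latrophilin, had 14 and 55 UMIs in 11 and 43 cells, a ratio of 2.29 (1.26 to 4.46). Pbxip1 had 29 and 106 UMIs, a ratio of 2.13 (1.40 to 3.33), Nisch 19 and 68, Mark1 19 and 64, Gtpbp4 21 and 70, Atf6 15 and 50, and Cox7a2 28 and 92. Tmcc3 had 75 and 47 UMIs, a ratio of 0.366 (0.248 to 0.533), and Map7d1 69 and 62, a ratio of 0.524 (0.366 to 0.749). Endothelial ratios lay between 0.779 and 1.13 for Plagl1, Adgrl1, Pbxip1, Nisch, Gtpbp4, Atf6 and Cox7a2, while Mark1 had only 1 and 2 UMIs in endothelial cells.

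**Figure D5:**
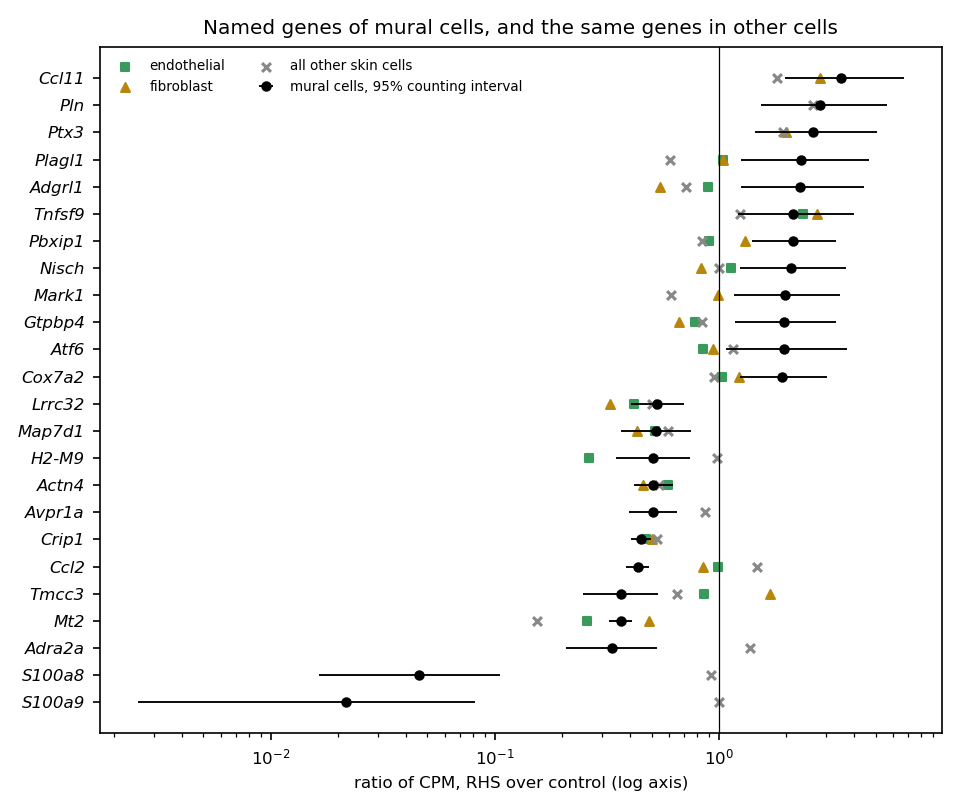
Ratio of CPM, RHS over control, on a log axis for the 24 named genes in mural cells (black, with 95% counting intervals), with the same genes in endothelial cells, fibroblasts and all other skin cells where at least 20 UMIs were counted. Crip1, Mt2, Actn4, Map7d1 and Lrrc32 lie below 1 in all 4 populations, and Ccl2 lies below 1 in mural cells and above 1 in all other skin cells.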

How the data were processed

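The authors deposited UMI counts, whole numbers per barcode that had not been normalized, per the file headers. Per the submitters' processing notes the build was GRCm39, with R 3.6.0, Seurat 5.1.0 and Cell Ranger named without roles. The software behind the skin barcodes was not given in the sources used here. Members were the barcodes meeting the rule in the report. The mural rule, gene lists and comparisons were chosen with earlier results of these data known. Comparison cells carried at least 3 markers of endothelium or fibroblasts. Counts were summed over members per library and scaled to CPM. Ratios have exact conditional binomial and shares Clopper-Pearson 95% intervals. Genes without a count in 1 library were taken at 3 counts there. No doublets were removed. Named genes were the 12 highest and 12 lowest ratios past 1.5-fold with 50 or more counts in the library of higher level and no less there than other skin cells. Predicted, sex-linked, mitochondrial, haemoglobin, ribosomal and antigen receptor genes were not named by it. Added to these were list members by level or ratio, 20 enriched genes, and set receptors and chemokines. Some genes outside these rules, Bgn among them, are also given. Sub-clusters came from scanpy 1.11.5 (1000 variable genes, 20 principal components, 15 neighbours, Leiden resolution 0.5). The ratio and its interval were tested on simulated data. Other tools were Python 3.11.15, numpy 2.4.6, scipy 1.17.1, pandas 2.3.3 and matplotlib 3.10.9. Some genes that the naming rule picks are left out of the text.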

Additional observations from a re-analysis of the deposited data

Results flagged for a closer look

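Plagl1 had a ratio of 2.33 (1.25 to 4.67) in mural cells and 0.603 (0.561 to 0.648) in all other skin cells, opposite directions past 1.5-fold. Mark1 had 1.96 (1.16 to 3.47) in mural cells and 0.608 (0.479 to 0.769) in all other skin cells. Against fibroblasts, Adgrl1 had 2.29 (1.26 to 4.46) in mural cells and 0.546 (0.346 to 0.844), and Gtpbp4 1.94 (1.18 to 3.33) and 0.661 (0.468 to 0.926). None of these differences was tested, since each group is 1 library.

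In the ganglia library, which no comparison used, the mural rule found 12 of 4509 nuclei, with 57 UMIs of Myh11, 45 of Notch3, 32 of Acta2, 19 of Rgs5 and 6 of Tagln.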

How the results depend on the processing

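No paired analysis was possible because each skin group is 1 library, so a replicate block would leave nothing to compare. The ratio of mural shares stayed within the spread of counting, at 1.47 to 1.75 over all 7 alternatives. Counts of genes past 1.5-fold moved with the count minimum. With at least 100 counts 39 of 1182 measured genes were higher and 55 lower, and with at least 5 counts 1717 and 1456 of 8466. At 2-fold, 219 of 4682 were higher and 148 lower. In sub-clusters taken alone, an alternative added after seeing the data, fewer genes were measured. Higher were 356 of 2643, 373 of 1814 and 239 of 1214 in sub-clusters 0, 1 and 2. Lower were 352, 233 and 166 in the same sub-clusters. These turned single ratios: in sub-cluster 0 Adra2a to 2.89, Ccl11 to 0.413 and Ptx3 to 0.310, in sub-cluster 1 Tmcc3 to 2.14, and in sub-cluster 2 Avpr1a to 1.00, Ccl2 to 1.13, Lrrc32 to 1.00 and Plagl1 to 0.251, mostly on few counts. Divided by the ratio in other skin cells, Mt2 became 2.37 and Lrrc32 1.06, and of the 24 named genes 8 others moved: Ccl11 to 1.93, Pln to 1.08, Ptx3 to 1.35, Crip1 to 0.846, Actn4 to 0.939, Map7d1 to 0.885, Ccl2 to 0.293 and Tmcc3 to 0.561. With at least 4 markers S100a8 had 0 and 6 UMIs, a ratio to the floor of 1.26. The median of the immune list turned to -1.11 in sub-cluster 2 alone, on 3 measured genes. With free RNA subtracted it turned to -0.75. The share of free RNA was estimated from the immune and keratinocyte lists themselves, so that value is no check of the immune list. Of 24 named genes, 24 kept their value within counting error after removal of Scrublet calls, median-ratio scaling and removal of sub-cluster 3. Scaling multiplied all ratios by the same factor, and Scrublet removal took out 1 control and 2 RHS mural cells. Neither could move a ratio much, so they are weak checks. Of the lists, that of antigen presentation went from a median of 0.46 to -0.06 and that of mural transcription factors from -0.26 to 0.16 when cells with Pecam1 or Cdh5 UMIs were kept. The chemokine median of -0.12 went to 0.15 with at least 4 markers, and in sub-clusters alone to -1.31 (0), 0.19 (1) and -0.57 (2). The contractile median of 0.14 went to -0.67 in sub-cluster 1 alone. Ptx3 went to 5.88 with at least 2 markers and 5.41 with at least 4. The cause of these moves was not tested. Depth limits genes under about 50 UMIs, whose intervals span more than 2-fold, and also genes with more. Cox7a2 with 28 and 92 UMIs had an interval of 1.24 to 3.04, and H2-M9 with 63 and 55 one of 0.348 to 0.743.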

Other observations

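Of 33 measured contraction signalling and channel genes, 17 were higher and 16 lower, with 3 past 1.5-fold each way. Over all measured genes, of any counts, the shares were 13.5% and 10.9%. Itpr1, the calcium release channel of the endoplasmic reticulum, had 29 UMIs in 24 control mural cells and 84 in 54 RHS mural cells, a ratio of 1.69 (1.10 to 2.67). Ccn2, a matrix-associated growth factor, had 4 and 30 UMIs, a ratio of 4.37 (1.54 to 17.1), and 2.44 in all other skin cells. Itga8, an integrin chain of smooth muscle, had 36 and 93 UMIs, a ratio of 1.51 (1.01 to 2.28), and Cdh6, a cadherin, 9 and 34, a ratio of 2.20 (1.03 to 5.22). Il13ra1, a receptor chain for interleukins 4 and 13, had 22 UMIs in 17 control cells and 65 in 44 RHS cells, a ratio of 1.72 (1.05 to 2.94), while Il4ra had 18 and 19, a ratio of 0.616 (0.306 to 1.24).

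Interferon-response genes were 8 higher and 13 lower of 21 measured, with 2 and 4 past 1.5-fold. Over all measured genes 52.3% were higher, with 13.5% past 1.5-fold higher and 10.9% past it lower. Gbp2, an interferon-induced GTPase, had 69 and 68 UMIs, a ratio of 0.575 (0.405 to 0.815). All 18 RHS UMIs of Ifit1 came from 1 cell. Heat shock genes were 9 higher and 8 lower of 17 measured. Hspb1, a small heat shock protein of smooth muscle, was at 1240 and 821 CPM, a ratio of 0.662 (0.569 to 0.771), and Hspa1b at 1114 and 1513 CPM, a ratio of 1.36 (1.18 to 1.56). The 8 vitamin D genes listed had 11 UMIs in control and 13 in RHS, too few for any of them to be measured. Of 20 proliferation genes, 4 were measured, Mki67 had 0 and 1 UMIs, and Top2a, Ccnb1, Ccna2 and Cenpf had none in either library.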
